A study of Mus musculus with 18 samples.

Results

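The axon guidance ligands and receptors described here are 54 of the 39017 gene identifiers counted in ribosome-bound RNA of mouse entorhinal cortex layer II neurons. They were chosen by symbol: semaphorins of classes 3 to 7 with their plexin and neuropilin receptors, the Slit and Robo genes, the ephrins and Eph receptors, and the netrins with Unc5a to Unc5d and Dcc. Of the 71 genes with such a symbol, 54 reached a mean of 1 CPM (counts scaled to library size) over the 9 overexpression libraries, and no difference between groups entered this choice. The members just inside this threshold were Sema6c at 1.16, Unc5b at 1.33 and Sema3d at 1.34 CPM, and the genes just outside were Epha8 at 0.83, Ntn1 at 0.82 and Epha1 at 0.80 CPM. The 54 comprise 27 ligands, 26 receptors and Plxna4os3, a non-coding RNA whose symbol begins like a plexin and which overlaps 110 bases of Plxna4 exon on the opposite strand.

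The libraries were made by TRAP (translating ribosome affinity purification), in which ribosomes that carry a tag in certain cells are pulled down with the transcripts bound to them. In the silencing experiment 4 libraries came from mice injected with a vector carrying an shRNA against Ptbp1 and mCherry, and 5 from mice given a scrambled shRNA with mCherry. In the overexpression experiment 5 libraries came from mice given a Ptbp1 and mCherry vector, and 4 from mice given a control vector with mCherry. Ptbp1 encodes an RNA-binding protein that represses many exons and is low in mature neurons. Every group thus carried an injected mCherry vector, each library is 1 mouse with both of its entorhinal cortices pooled, and 1 mouse per experiment was left out by the authors because no read mapped to mCherry. Neither the age nor the strain of the mice, nor the promoter behind the ribosome tag, is named in the labels, and the tissue label reads hippocampus where the series title names the entorhinal cortex.

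Guidance cues are secreted or membrane-bound proteins that attract or repel growing axons through receptors on the growth cone. Semaphorins act through plexins, the class 3 members together with neuropilins. Slits act through Robo receptors, ephrins through Eph receptor tyrosine kinases with signalling possible in both directions, and netrins through Dcc and the Unc5 receptors. In the adult brain many of these genes remain expressed in neurons and are known for roles at synapses and dendrites.

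Library depth was 34339355 to 46544178 gene counts in silencing and 18288627 to 39056655 in overexpression. The silencing libraries were nevertheless the less even: 1.24% to 8.30% of 56285 strongly covered exon bins held no read, against 0.0213% to 0.0551% in overexpression, and the biological coefficient of variation common to all genes was 90.1% against 22.3%. Ptbp1 was 13.2 CPM ± 3.02 (SD, n = 4) with the control vector and 137 CPM ± 14.9 (n = 5) with the Ptbp1 vector, and it rose by 3.34 on the log2(CPM + 0.5) scale (SE 0.172, exact two-sided permutation p = 0.0159, the smallest this design allows). In silencing Ptbp1 was 4.09 CPM ± 3.76 (n = 5) with the scrambled shRNA and 5.08 CPM ± 6.09 (n = 4) in the libraries labelled Ptbp1 shRNA, so that the targeted gene did not mark the silenced group (difference -0.18 on the log2(CPM + 0.5) scale, SE 1.26, exact two-sided permutation p = 0.921; edgeR's log2 fold change has the other sign, 0.31). Directions named for silencing below therefore compare libraries by their labels. Defining markers of excitatory neurons were abundant in both control groups, with Camk2a at 2721 CPM and Slc17a7 at 209 CPM in scrambled and 1637 and 583 CPM in control-vector libraries. Markers of other cells were uneven in silencing: the 8 microglial markers summed to 0.06 to 19.4 CPM over the silencing libraries and 6.66 to 14.02 CPM over the overexpression libraries, and the 10 markers of vessels and meninges to 108 to 239 CPM and 75.9 to 115 CPM. Most of the vessel sum was Dcn and Rgs5, while Cldn5, Kdr and Vtn were listed at 0 in all silencing libraries, as was the microglial C1qa; another microglial marker, Csf1r, reached 17.6 CPM in scrambled library 5.

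Ptbp1 acts on exons, so the coding exon bins of the members with the smallest p in the overexpression experiment are shown first. An exon bin is a stretch of a gene's exons between neighbouring transcript boundaries. Coordinates are from mm10 with the GENCODE annotation, sequences are transcript strand, 5′ to 3′, and capitals mark TCTT, a short pyrimidine motif of the kind that Ptbp1 is known to bind. The coding bins of Sema6d, Epha3 and Robo1 are printed because they had the smallest unadjusted p among the coding bins considered, none past the adjusted threshold. Those considered were shorter bins whose coordinates could be rebuilt, and they did not take in every chromosome.
Sema6d bin 29, chr2:124660244-124660282, plus strand: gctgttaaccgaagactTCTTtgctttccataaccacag
Epha3 bin 12, chr16:63612850-63612974, minus strand: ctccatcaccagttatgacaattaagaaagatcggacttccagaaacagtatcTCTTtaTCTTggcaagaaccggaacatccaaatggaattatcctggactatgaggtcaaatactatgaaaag
Robo1 bin 23, chr16:73009612-73009756, plus strand: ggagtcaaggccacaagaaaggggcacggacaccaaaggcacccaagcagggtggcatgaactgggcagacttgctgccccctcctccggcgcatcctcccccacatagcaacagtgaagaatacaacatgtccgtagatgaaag
On the transcript strand TCTT occurs 1 time in the Sema6d bin, 2 times in the Epha3 bin and 0 times in the Robo1 bin. It occurs in 17.0% of 540 coding bins of the same length as the Sema6d bin, in 42.1% of 889 as long as the Epha3 bin and in 47.6% of 767 as long as the Robo1 bin. These matches describe letters in a short window of exon; the flanking introns were not searched.

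Levels can be compared between genes only per length, so CPM was divided by the kilobases of exon of each gene. In the control-vector libraries the highest level per kilobase was that of Unc5a, a receptor for the repulsive action of netrins, at 19.6 CPM per kb ± 2.15 (SD, n = 4). Epha4, an Eph receptor that binds ephrins of both classes, followed at 13.5 ± 2.68 CPM per kb, and Plxnd1, the receptor of Sema3e, at 10.8 ± 1.32. The 4 libraries of Unc5a, from 16.5 to 21.6 CPM per kb, all lay above those of Epha4, from 9.49 to 15.3, whereas Epha4 and Plxnd1 (9.46 to 12.3) overlapped. Below them, 9 genes lay close together with means between 7.34 and 8.93 CPM per kb: Sema6d, Sema7a, Efnb2, Epha6, Unc5d, Sema4f, Plxnc1, Robo2 and Sema3a. Neighbours in this stretch overlapped between libraries, and their order is not resolved. Sema4f varied least among them, from 7.80 to 8.18 CPM per kb over 4 mice.

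The upper end thus held ligands beside receptors for their kind. Sema7a, a membrane-anchored semaphorin, stood at 8.72 ± 0.98 CPM per kb and its receptor Plxnc1 at 7.59 ± 0.45. Efnb2, a transmembrane ephrin, stood at 8.71 ± 0.85 beside Epha4. The netrins themselves were scarce: Ntn4, the single netrin above the threshold, stood at 0.47 ± 0.19 CPM per kb. Of the netrin receptors, Unc5a stood at 19.6, Unc5d at 8.13 ± 0.76, Dcc at 3.34 ± 0.69 and Unc5c at 2.76 ± 0.43. Other ligands of these receptors were not compared. Sema3a, a secreted repellent, stood at 7.34 ± 1.44 CPM per kb, above its neuropilin co-receptor Nrp1 at 1.54 ± 0.43. Sema3e stood at 0.41 ± 0.06, the ligand of the abundant Plxnd1. The 4 lowest members were Sema6c (0.21 ± 0.12), Plxnb1 (0.19 ± 0.06), Unc5b (0.19 ± 0.05) and Sema3d (0.17 ± 0.08 CPM per kb). The pull-down aimed at 1 cell population, but markers of other cells were read too, such as Gad2 at 127 CPM and Mbp at 69.9 CPM with the control vector. A ligand and a receptor listed here may thus come from different cells. A low ligand says nothing of cells that were not captured, and fewer cells of a type and less RNA per cell cannot be told apart.

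**Figure D1:**
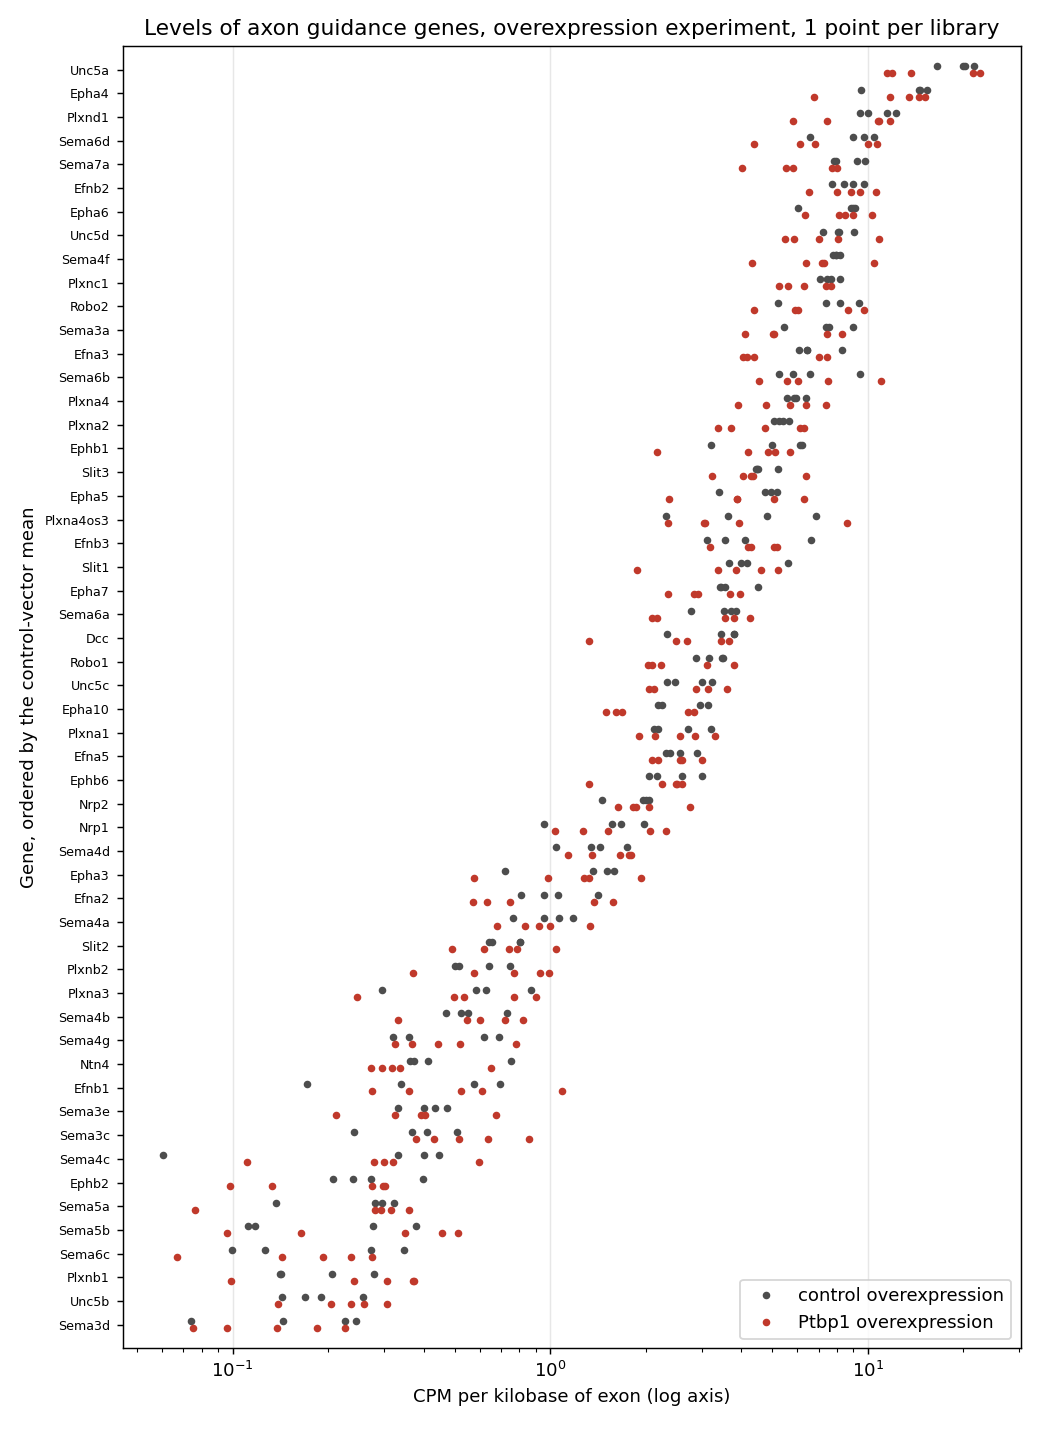
Level of each of the 54 genes in CPM per kilobase of exon (log axis) in the overexpression experiment, 1 point per library, with genes ordered by the control-vector mean. Unc5a stands at the top with control-vector libraries from 16.5 to 21.6, and Sema3d at the bottom with a mean of 0.17; red and grey points overlap for every gene.

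The first comparison asks whether raising Ptbp1 altered the level of guidance transcripts on ribosomes. No member passed edgeR's quasi-likelihood test at an adjusted p under 0.05 (0 of 54, against 0.0425% of all 16480 genes tested). At an unadjusted p under 0.05 there was 1 member, Sema7a, lower in the treated libraries, against 4.78% of all genes in either direction and 1.99% lower. DESeq2 and limma-voom with quality weights also called 0 members, where they called 0.206% and 0.0485% of all genes. In no member did the treated and control libraries fail to overlap (1.81% of all genes). Of the 54, 37 had a lower and 17 a higher mean, which is 68.5% lower against 50.02% of all genes, with log2 fold changes from -0.49 to 0.55 and a median of -0.09 (-0.00008 over all genes). By role, 17 of 27 ligands and 19 of 26 receptors were on the lower side, with medians of -0.04 and -0.12.

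Sema7a (ENSMUSG00000038264, chr9:57940112-57962865) read 25.8, 32.4, 26.3 and 30.5 CPM in the control-vector libraries and 13.2, 19.1, 18.3, 26.4 and 25.5 CPM in the Ptbp1 libraries. Treated libraries 1, 2, 3 and 5 lay below all controls and library 4 among them. The log2 fold change was -0.49 (SE 0.18), from 28.8 CPM ± 3.24 to 20.5 CPM ± 5.48, with edgeR's unadjusted p = 0.0163 and adjusted p = 0.954. Its receptor Plxnc1 read 62.4, 64.1, 59.0 and 68.1 CPM with the control vector and 47, 52.6, 43.9, 61.6 and 64.0 CPM with Ptbp1. Treated libraries 1 to 3 lay below all controls and 4 and 5 among them, the same libraries as for Sema7a but for library 5, and the log2 difference was -0.24 (SE 0.12, edgeR adjusted p = 0.974).

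Among the other members with the smallest p, 5 of 6 had lower treated means, all at an edgeR adjusted p of 0.974. Robo1, a receptor of the Slits, read 47.5, 58.0, 57.2 and 52.3 CPM in controls and 34.6, 33.6, 37.0, 62.7 and 51.4 CPM in treated libraries (log2 difference -0.29, SE 0.17). Epha10, an Eph receptor with an inactive kinase domain, averaged 19.0 CPM ± 3.50 and 14.9 CPM ± 4.68 (-0.35, SE 0.21), and Efna3, a lipid-anchored ephrin, 16.6 CPM ± 2.42 and 13.2 CPM ± 4.07 (-0.33, SE 0.20). Efna3 shares 344 bases of exon with Gm15998 on the other strand, so if reads were counted without strand these genes cannot be told apart. Epha7 averaged 36.8 CPM ± 5.16 and 31.2 CPM ± 6.50 (-0.24, SE 0.15), and Sema3a 102 CPM ± 20.0 and 83.1 CPM ± 24.7 (-0.29, SE 0.20). Sema3c, a secreted class 3 semaphorin of low level here, was on the higher side, with 2.63, 2.93, 1.72 and 3.63 CPM in controls and 3.07, 2.70, 6.13, 3.68 and 4.55 CPM in treated libraries (0.55, SE 0.29).

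The median SE of the members' log2 fold changes was 0.22, and for 43 of 54 members (79.6%, against 78.8% of all genes) the 95% interval lay wholly within 1 log2 unit on either side of 0. Efnb2 and Unc5c were among the nearest to 0, Efnb2 at 59.7 CPM ± 5.82 in controls and 59.6 CPM ± 10.6 in treated libraries and Unc5c at 52.8 CPM ± 8.23 and 52.8 CPM ± 12.8. The intervals that reached beyond 1 log2 unit were those of the 11 members Efnb1, Ephb2, Ntn4, Plxna4os3, Plxnb1, Sema3c, Sema3d, Sema4c, Sema5b, Sema6c and Unc5b.

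**Figure D2:**
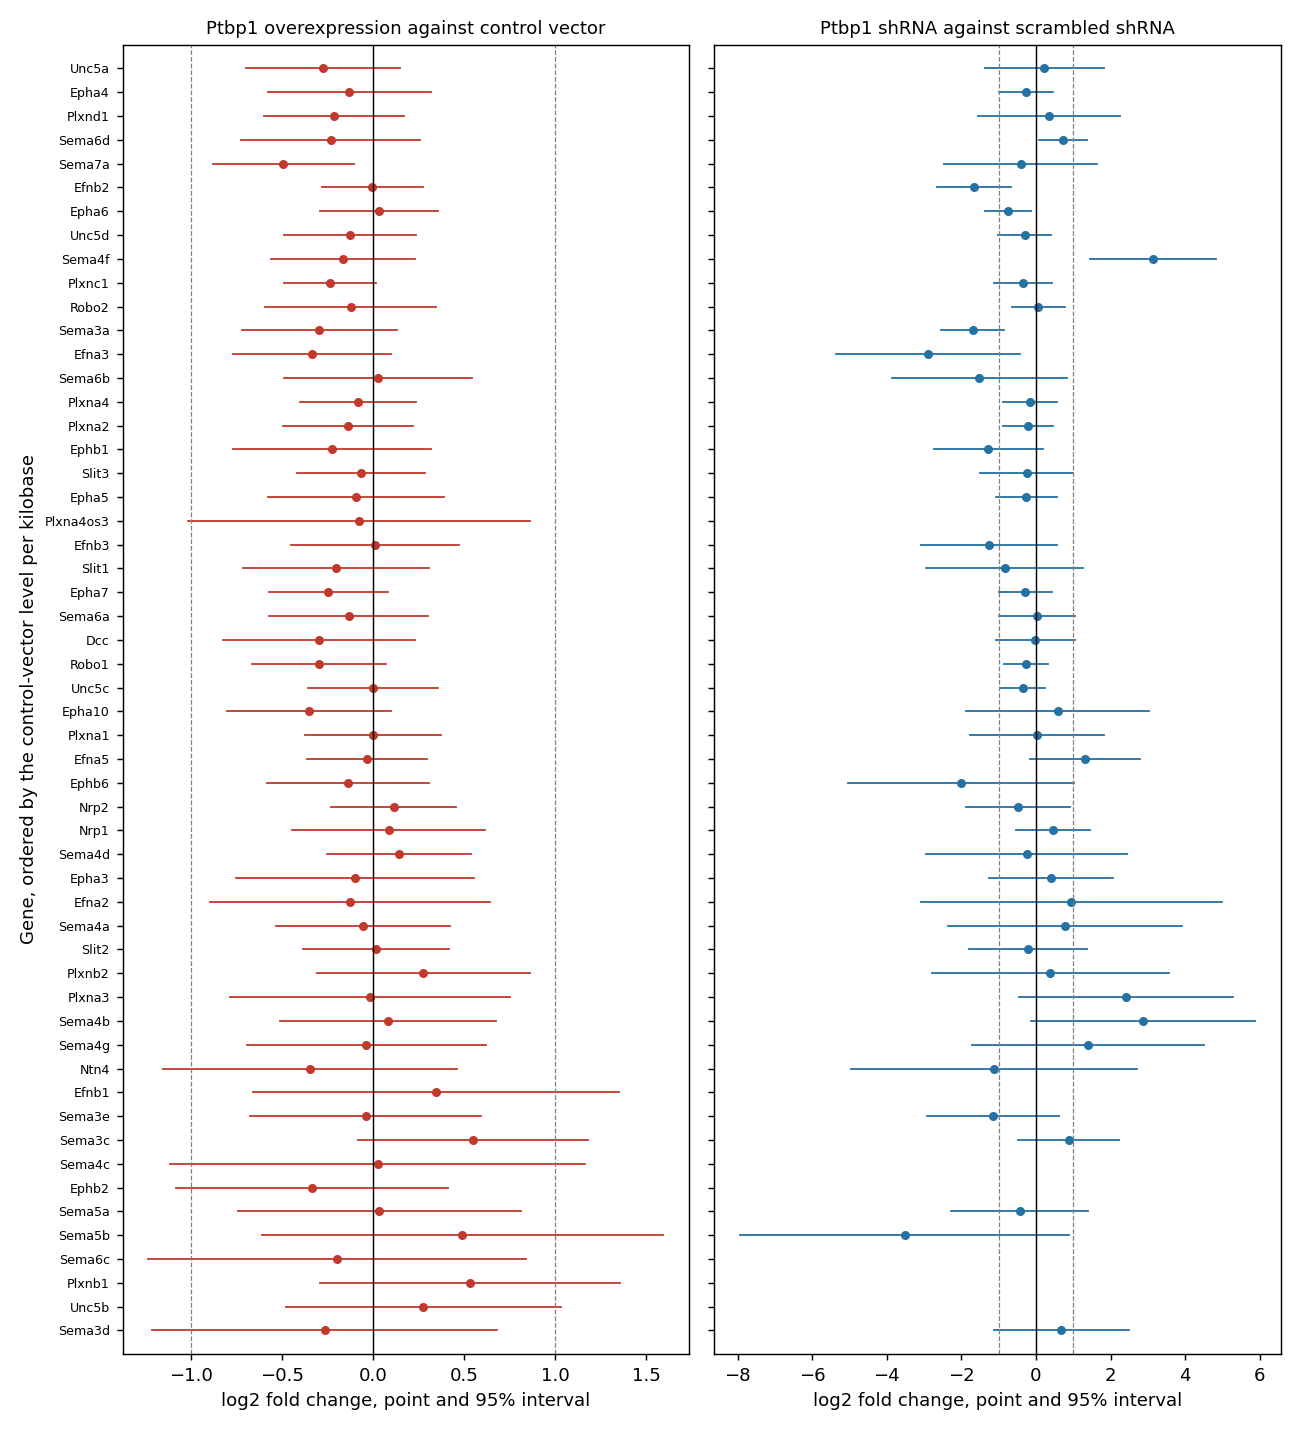
Log2 fold change of each member with its 95% interval in the overexpression (left) and silencing (right) experiments, on separate scales, with dashed lines at 1 log2 unit either side of 0. On the left 43 of 54 intervals stay inside the dashed lines, on the right 6 of 47.

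The lower side in overexpression was not shared by all treated mice. The sum over all 54 members was 1084, 1471, 1319, 1887 and 2022 CPM in Ptbp1 libraries 1 to 5, and 1513, 1738, 1730 and 1884 CPM in control libraries 1 to 4. Treated libraries 1, 2 and 3 lay below every control and 4 and 5 above every control. Ptbp1 library 1 held the lowest of the 9 values for 28 of 54 members (51.9%, against 13.8% of all genes tested), and library 5 the highest for 22 (40.7%, against 10.6%). The members' median difference from the control mean, on the log2(CPM + 0.5) scale, was -0.62 in library 1, -0.14 in library 2, -0.31 in library 3, 0.17 in library 4 and 0.19 in library 5, against -0.08 to 0.15 in the controls. Without Ptbp1 libraries 1 and 3, an alternative chosen after the data were seen, 14 of 54 members were on the lower side in place of 37, and the median became 0.10. Those 2 libraries had the lowest sums, so leaving them out had to raise the treated values and tests nothing.

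The spread between the treated mice was thus wide for these genes. Their median coefficient of variation was 31.1% in the Ptbp1 libraries and 19.7% in the controls, against 17.6% and 16.2% over all genes. The order of the mice was shared by ligands and receptors at both ends: ligand sums ran from 360 to 649 CPM and receptor sums from 723 to 1371 CPM in treated libraries, with library 1 lowest and library 5 highest for both. Ptbp1 itself stood at 136, 143, 158, 129 and 118 CPM in libraries 1 to 5, so that the 3 libraries with the lower member sums held more Ptbp1 than libraries 4 and 5; its part in the members' sums was not tested. Library 1 was also the deepest of the 9, with 39056655 gene counts.

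Sums of some markers moved with the members across these mice, and others did not. The 8 astrocyte markers summed to 323, 501, 463, 622 and 662 CPM in Ptbp1 libraries 1 to 5 and to 465, 621, 570 and 704 CPM in the controls. Most of that sum was the glutamate transporter Slc1a2 (547 CPM ± 96.6 in controls), while Gfap, Aqp4, Gja1, Aldh1l1, Slc1a3, S100b and Sox9 each averaged under 12 CPM there. The sum therefore follows Slc1a2, at 258 CPM in Ptbp1 library 1 and 619 CPM in library 5. Gfap, Aqp4, Slc1a3, S100b (27.1 and 13.6 CPM) and Sox9 (13.6 and 6.58 CPM) were higher in library 1 than in library 5. Gja1 and Aldh1l1 were lower in library 1. The 10 markers of superficial excitatory neurons summed to 2684, 3147, 2419, 3351 and 3192 CPM in treated and to 2930 to 3468 CPM in control libraries, so libraries 1 and 3 were the lowest here too. Most of the control sum was Camk2a and Slc17a7, named above as markers of excitatory neurons without regard to layer. The 8 interneuron markers summed to 360, 248, 288, 203 and 233 CPM in treated libraries, highest in library 1, and to 198 to 356 CPM in controls. The part of cell composition in the members' sums was not tested.

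**Figure D3:**
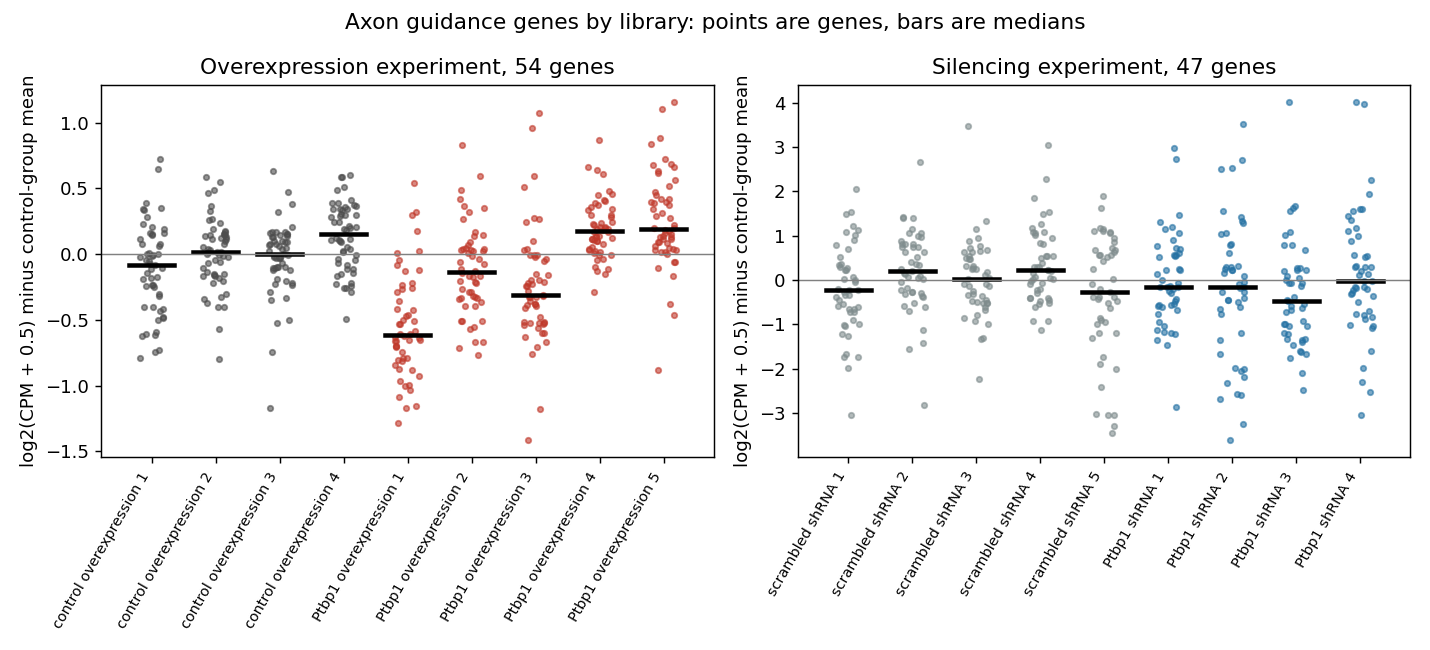
Difference of each member from its control-group mean on the log2(CPM + 0.5) scale, by library, for overexpression (left, 54 genes) and silencing (right, 47 genes); points are genes and black bars medians. Ptbp1 overexpression library 1 has its median at -0.62 and library 5 at 0.19, while the silencing points spread over several log2 units in every library.

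The second comparison asks the converse, whether libraries labelled Ptbp1 shRNA differed from scrambled ones. Of the 54 members 47 passed the filter on low counts. The 7 that did not are Efnb1, Ephb2, Plxna4os3, Plxnb1, Sema4c, Sema6c and Unc5b, and 14 members had no count in at least 1 of the 9 libraries. No member was called by edgeR (0 of 47, against 0% of 14656 genes). At an unadjusted p under 0.05 there were 6, 4 lower and 2 higher, where all genes gave 11.2% in either direction, 5.42% lower and 5.76% higher. Under alternatives there were 3 of 47 without scrambled library 1, 12 of 54 with DESeq2 and 15 of 54 with 1 spread over all 18 libraries. The share of all genes was not computed for these alternatives, so their counts cannot be set against it. Of the 47, 28 were on the lower and 19 on the higher side, with a median of -0.24 (0.03 over all genes) and a range from -3.52 to 3.14. This median was -0.02 without scrambled library 4, -0.10 without scrambled library 5, -0.11 without Ptbp1 shRNA library 1 and -0.13 without Ptbp1 shRNA library 3. The treated libraries lay wholly below the controls for 2 members, Sema3a and Epha6 (2.45% of all genes; 4.84% did not overlap in either direction).

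Sema3a (ENSMUSG00000028883, chr5:13125414-13602565) read 159, 227, 264, 165 and 322 CPM in scrambled libraries 1 to 5 and 29.5, 52.3, 70.5 and 128 CPM in Ptbp1 shRNA libraries 1 to 4. The groups did not overlap, with the highest treated value below the lowest control. The log2 fold change was -1.70 (SE 0.39), with edgeR's unadjusted p = 8.63e-04 and adjusted p = 0.137. DESeq2 called it, with an adjusted p of 0.0057, as did limma-voom with quality weights at 0.0457. DESeq2 called 3 members in this comparison (Sema3a, Sema4f and Efnb2; 4.54% of all genes, or 3.11% with no independent filtering), limma-voom 1 (0.573%), and edgeR with 1 spread over all 18 libraries 6 (9.98%). DESeq2 and the fit over 18 libraries took in all 54 members, including those that the filter in silencing alone had removed. Over all alternatives the adjusted p of Sema3a ran from 0.0057 to 0.299.

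Sema4f (ENSMUSG00000000627, chr6:82911885-82939769), a transmembrane semaphorin found at synapses, read 5.43, 0.83, 2.25, 1.04 and 5.80 CPM in scrambled and 22.6, 33.0, 46.7 and 5.80 CPM in Ptbp1 shRNA libraries. Treated libraries 1 to 3 were well above every control, and library 4 was level with the highest. The log2 fold change was 3.14 (SE 0.78, edgeR adjusted p = 0.163; DESeq2 adjusted p = 0.0018; range over the alternatives 0.0018 to 0.320). In the overexpression experiment Sema4f stood at 42.1 CPM ± 0.84 with the control vector and 37.7 CPM ± 11.7 with Ptbp1.

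Efnb2 (ENSMUSG00000001300, chr8:8617434-8661242) read 18.5, 74.4, 64.5, 87.7 and 122 CPM in scrambled and 28.5, 19.4, 24.5 and 20.3 CPM in Ptbp1 shRNA libraries. The treated libraries formed a narrow band and scrambled library 1 lay below it. The log2 fold change was -1.66 (SE 0.46, edgeR adjusted p = 0.202; DESeq2 adjusted p = 0.0159; range over the alternatives 0.0079 to 0.414). Epha6 (ENSMUSG00000055540, chr16:59653483-60605531), an Eph receptor, read 97.8, 61.5, 58.4, 92.7 and 76.2 CPM in scrambled and 39.1, 47.7, 51.4 and 46.4 CPM in treated libraries, again without overlap. Its log2 fold change was -0.74 (SE 0.29, edgeR adjusted p = 0.349).

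The remaining members with the smallest p rested on more scattered values. Efna3 read 23.6, 3.52, 6.36, 13.3 and 0.19 CPM in scrambled and 2.33, 0.65, 1.40 and 0.68 CPM in treated libraries (log2 difference -2.89, edgeR adjusted p = 0.363). Sema6d, a transmembrane semaphorin and one of the most abundant members, read 73.4, 145, 105, 94.7 and 64.3 CPM in scrambled and 137, 232, 159 and 114 CPM in treated libraries (0.74, SE 0.30, edgeR adjusted p = 0.381). Sema4b averaged 0.83 CPM ± 1.29 and 6.07 CPM ± 6.51 (2.86, edgeR adjusted p = 0.476), and Efna5, an ephrin known for topographic mapping, 7.11 CPM ± 2.82 and 17.6 CPM ± 16.0 (1.31, edgeR adjusted p = 0.509). Single libraries carried both of these means: Sema4b reached 15.2 CPM in treated library 4 and Efna5 40.5 CPM in treated library 2.

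**Figure D4:**
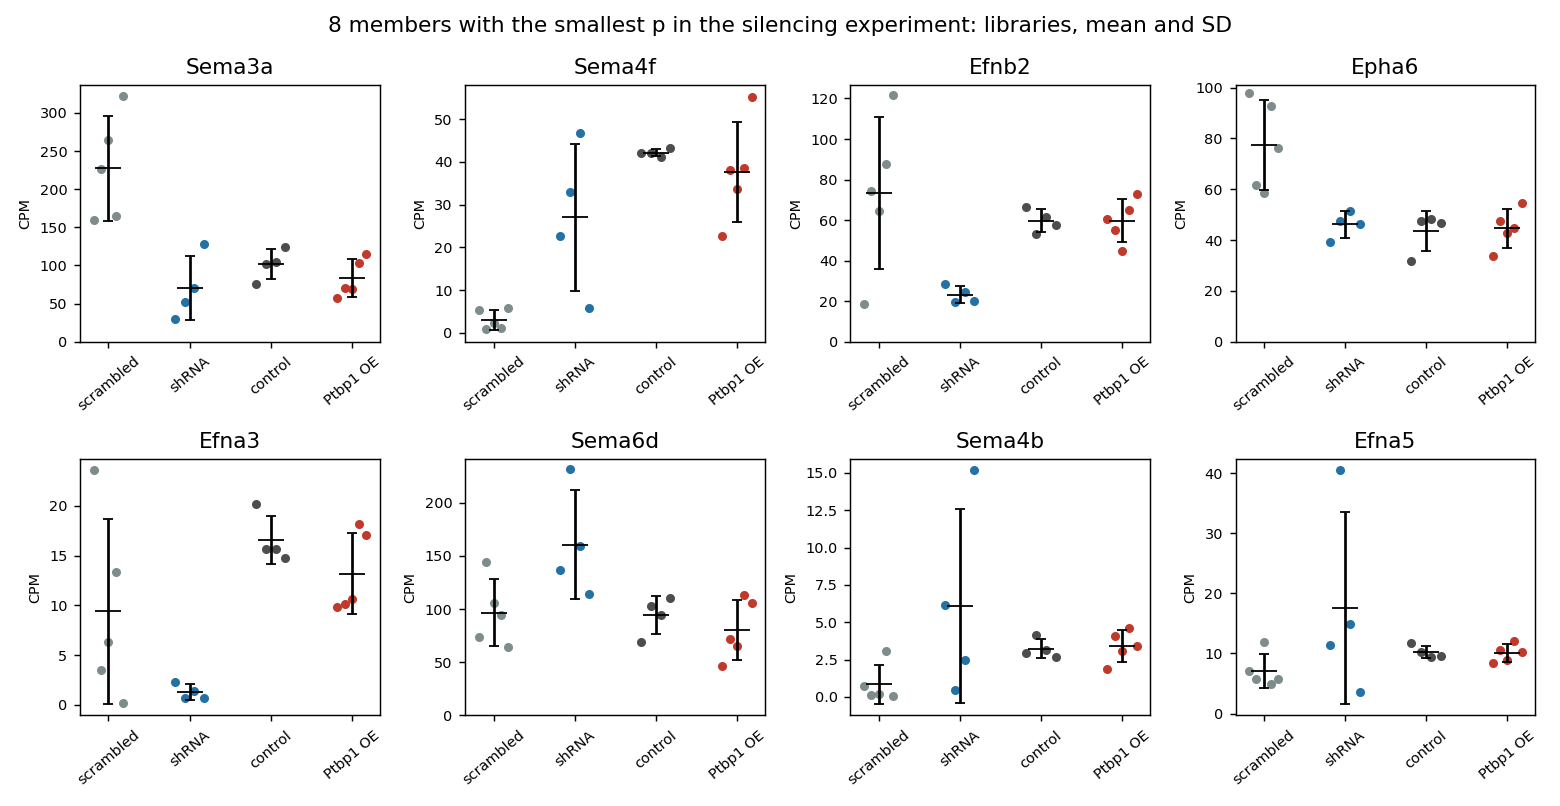
CPM of the 8 members with the smallest p in silencing, in all 18 libraries (points) with the mean and SD of each group (black), all axes starting at or below 0. Sema3a and Epha6 show treated silencing libraries wholly below the scrambled ones, and Sema4f shows 3 treated libraries well above them and 1 among them.

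By family, the members of a pathway did not share 1 direction in silencing. Semaphorins were 8 higher and 7 lower of 15 tested (median 0.03), plexins 4 higher and 3 lower of 7 (0.03), and ephrins 2 higher and 3 lower of 5 (-1.27). Eph receptors were 2 higher and 6 lower of 8 (-0.28), and the 3 Slits were all on the lower side (-0.25), with no member of these families called by edgeR. For receptors of the ligands above the groups overlapped: Nrp1 averaged 39.7 CPM ± 17.3 with scrambled and 54.5 CPM ± 32.9 with Ptbp1 shRNA, Plxna4 85.3 CPM ± 31.5 and 76.6 CPM ± 22.1, and Epha4 87.9 CPM ± 37.9 and 72.5 CPM ± 7.69. The 95% interval lay within 1 log2 unit of 0 for 6 of 47 members (12.8%, against 11.8% of all genes). The interval of Sema4f lay wholly beyond 1 log2 unit, from 1.45 to 4.83. The summed level of the members was 1765 to 2927 CPM in scrambled and 1517 to 2362 CPM in treated libraries.

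Marker sums overlapped between the silencing groups, for the superficial excitatory markers only through scrambled library 5 (2895 CPM) and Ptbp1 shRNA library 1 (2913 CPM). The next values were 3417 CPM in scrambled library 2 and 2656 CPM in Ptbp1 shRNA library 2. The 10 superficial excitatory markers summed to 2895 to 4976 CPM in scrambled and 1801 to 2913 CPM in Ptbp1 shRNA libraries, and the 8 astrocyte markers to 638 to 1031 CPM and 324 to 788 CPM. Interneuron markers summed to 293 to 369 CPM and 188 to 366 CPM. Their part in the values of Sema3a, Efnb2 and Epha6 was not tested. Leaving out the least evenly covered library of each group, Ptbp1 shRNA 2 and scrambled 5, an alternative also chosen after the data were seen, left 0 members called by edgeR.

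Whether a member responded differently to the 2 treatments was tested over all 18 libraries, as the overexpression difference minus the silencing difference. This fit gives both experiments 1 spread, with a common coefficient of variation of 74.6%, against 90.1% in silencing and 22.3% in overexpression fitted alone. With this spread 9.98% of all genes were called in silencing, where the separate fit called 0%. The SE and p of edgeR below rest on it. No member was called (0 of 54, against 0.225% of 17779 genes), and 8 had an unadjusted p under 0.05 in edgeR, 6 higher and 2 lower, against 14.6% of all genes. Sema4f had the smallest p, at -3.30 (SE 0.77, edgeR adjusted p = 0.067), from 3.14 in silencing and -0.16 in overexpression. It was followed by Efnb2 at 1.66 (SE 0.48, edgeR adjusted p = 0.125), Sema3a at 1.41 (SE 0.46, edgeR adjusted p = 0.162) and Efnb1 at 5.51 (SE 1.93, edgeR adjusted p = 0.181). Efnb1 rests on 1 scrambled library with 3.74 CPM, the other silencing libraries being at 0.78 CPM or less. It failed the filter on low counts in silencing alone and entered this fit through its overexpression counts. Epha6 (0.78), Sema6d (-0.96), Efna3 (2.57) and Sema6b (1.56) completed the 8, at edgeR adjusted p from 0.227 to 0.308. Sema3a was on the lower side in both experiments, -1.70 and -0.29, whereas Sema6d was 0.74 in silencing and -0.23 in overexpression. DESeq2 called Sema4f, Efnb2 and Efnb1 for this difference, where it called 4.75% of all genes (2.82% with no independent filtering), and limma-voom called 0 members and 0.169% of all genes. Without Ptbp1 shRNA library 4 edgeR called Sema4f and Sema3a, without scrambled library 1 Efnb2, and without scrambled library 5 Sema4f, at adjusted p from 0.0238 to 0.0407 and with 0.955%, 0.31% and 0.649% of all genes called.

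The use of exons within members was compared by setting each bin against the other bins of its gene. In overexpression 660 bins of 37 members could be tested, and none was called by edgeR (0 of 660, against 0.034% of 117580 bins), with 6 at an unadjusted p under 0.05 against 1.38% of all bins. In silencing 391 bins of 31 members were tested with 0 called (0.0012% of 83164 bins) and 8 at an unadjusted p under 0.05 against 1.98%. The bins named below were picked by their p, so groups that do not overlap there are no added evidence. The share of all bins without overlap was not computed. The adjusted p was 1.00 for each bin named below.

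The smallest p in overexpression was that of bin 28 of Unc5c (chr3:141830085-141830538, 454 bases, not coding), which 2 of 7 transcripts hold. It took 5.45%, 8.16%, 5.54% and 5.19% of the gene's bin counts in control libraries and 3.31%, 3.29%, 3.51%, 3.62% and 3.70% in Ptbp1 libraries, on 20 to 92 counts. All treated libraries lay below all controls, with a relative usage of -0.83 on the log2 scale (edgeR unadjusted p = 0.0061), while the level of Unc5c averaged 52.8 CPM in both groups. In silencing the same bin took 5.71% ± 4.01 with scrambled and 10.7% ± 6.36 with Ptbp1 shRNA, on the opposite side (0.92, edgeR unadjusted p = 0.300).

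Bin 29 of Sema6d, the 39-base coding exon printed above and held by 2 of 11 transcripts, took 2.40%, 1.54%, 1.39% and 1.65% in controls and 0.97%, 0.43%, 0.66%, 1.03% and 0.47% in Ptbp1 libraries. Here too the groups did not overlap (log2 relative usage -1.26, edgeR unadjusted p = 0.0130), and the counts behind it were 20 to 37 and 7 to 23. In the silencing libraries this bin held no read in 7 of the 9 and was not tested.

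Bin 12 of Epha3, printed above, lay the other way, at 0.90%, 2.89%, 3.59% and 1.12% in controls and 8.06%, 7.35%, 5.66%, 3.89% and 5.37% in Ptbp1 libraries (1.43, edgeR unadjusted p = 0.0198). Only 1 to 7 counts stood behind the control values and 9 to 25 behind the treated ones. Robo1 bin 23 averaged 2.08% ± 1.00 and 1.11% ± 0.35 with overlapping groups (-0.92, edgeR unadjusted p = 0.0398). Of the 3 printed exons, Sema6d and Robo1 had the lower and Epha3 the higher mean usage with Ptbp1, none past the adjusted threshold.

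In silencing the smallest p among the bins were those of Unc5c bin 21, Plxna2 bins 35 and 34, Unc5a bin 11 and Epha6 bin 11, with edgeR unadjusted p from 0.0227 to 0.0392 and all with lower mean usage in Ptbp1 shRNA libraries. Plxna2 bin 35 was the one whose groups did not overlap, at 0.0946% to 3.38% in scrambled and 0.0347% to 0.0858% in treated libraries, with 1 to 3 counts in each treated library. In overexpression these 5 bins differed by 0.57 or less on the log2 scale, with overlapping groups.

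The genes that carry guidance signals into the cell were taken from a list of 81 that holds co-receptors, exchange factors, collapsin response mediators and actin regulators. In overexpression 30 were on the higher and 48 on the lower side of 78 tested (median -0.04), with 0 called by edgeR and 0 higher and 5 lower at an unadjusted p under 0.05, where all genes gave 1.99% lower and 4.78% in either direction. Kalrn, an exchange factor found at synapses, had the smallest p there, at 2204 CPM ± 332 in controls and 1511 CPM ± 366 in Ptbp1 libraries (log2 -0.54, SE 0.17, edgeR adjusted p = 0.779). Cdk5, a kinase in semaphorin signalling, and Chn2 stood at -0.20 and -0.27.

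In silencing 32 of the list were on the higher and 43 on the lower side of 75 tested (median -0.19), with 0 called by edgeR and 7 higher and 10 lower at an unadjusted p under 0.05, where all genes gave 5.76% higher and 5.42% lower. Kalrn was again the first, at 859 CPM ± 78.1 with scrambled and 375 CPM ± 92.8 with Ptbp1 shRNA (-1.19, SE 0.20, edgeR adjusted p = 0.0625). Arhgef11, an exchange factor downstream of plexin B, stood at 71.7 CPM ± 12.6 and 187 CPM ± 42.2 (1.39, SE 0.25, edgeR adjusted p = 0.0625). Chn2, a Rac-specific GTPase-activating protein, stood at 117 CPM ± 35.8 and 27.8 CPM ± 14.9 (-2.08, SE 0.39, edgeR adjusted p = 0.0656), and Rac1 itself at 1389 CPM ± 88.7 and 834 CPM ± 138 (-0.73, SE 0.17, edgeR adjusted p = 0.135). Kalrn and Chn2 were on the lower side in both experiments. Both were named for their small p in each, and neither was called by edgeR in either. For the difference between the responses Arhgef11, which is no member, passed the test at -1.53 (SE 0.26, edgeR adjusted p = 0.022). That fit gives 1 spread to both experiments, and in silencing fitted alone Arhgef11 did not pass. It stood at 100.5 CPM ± 11.5 in control-vector and 90.5 CPM ± 10.2 in Ptbp1 libraries.

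The control groups of the 2 experiments, which differ in vector, in library and possibly in much else, gave different levels for many members. All 5 scrambled libraries lay above all 4 control-vector libraries for 10 of the 54 and below them for 15, and the groups overlapped for 29. Over 14328 genes the same counts were 1686 above, 4778 below and 7864 overlapping. Members were chosen by their level in the overexpression libraries. The 14328 genes were those with a control-vector mean of at least 1 CPM and some count in scrambled libraries. Genes high only in scrambled libraries are thus largely missing from both sets, so the excess of genes below cannot be read as a result. Sema4f stood at 3.07 CPM with scrambled and 42.1 CPM with the control vector, Plxnd1 at 10.4 and 79.1, Unc5a at 14.9 and 81.6 and Sema6b at 2.70 and 26.9. In the other direction Sema6a stood at 128 and 30.5 CPM, Epha7 at 137 and 36.8, Epha5 at 268 and 76.6 and Unc5d at 229 and 75.0. The ratio was lower at higher GC content of the transcript, with a Spearman rho of -0.674 over the 54 members and -0.653 over all genes, given as a description across genes that share the same 9 libraries. Experiment, vector and library preparation cannot be told apart here, so the order of levels per kilobase given above holds for the control-vector libraries only. Within each experiment the log2 fold change of the members showed no such relation, with rho 0.07 in overexpression and -0.04 in silencing.

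**Figure D5:**
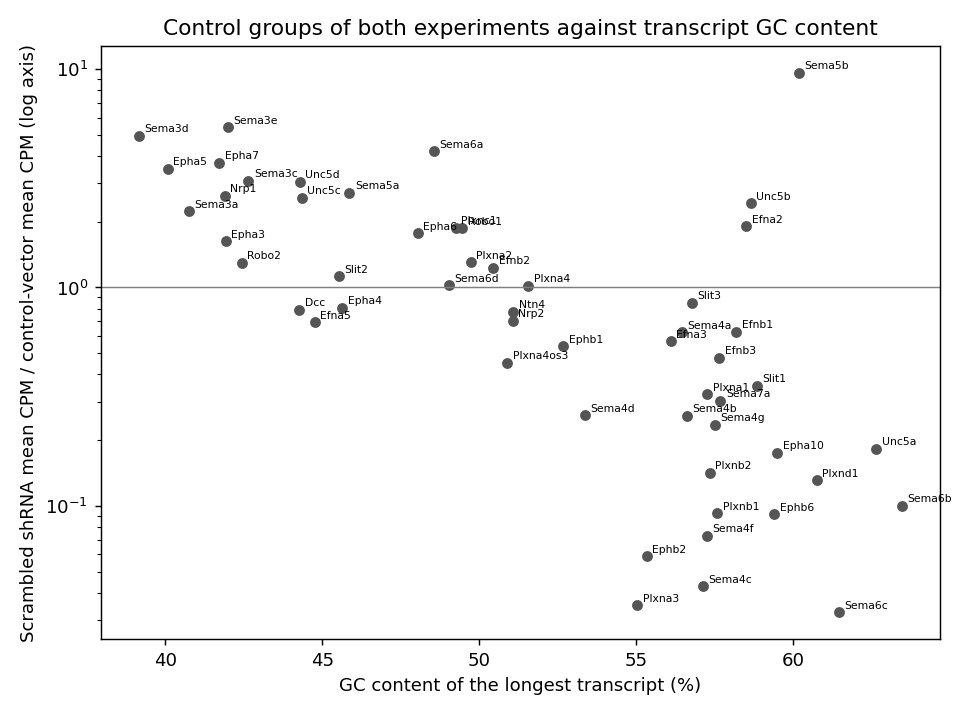
Ratio of mean CPM in scrambled shRNA over control-vector libraries (log axis) against the GC content of the longest transcript in percent, 1 point per member. Members with AT-rich transcripts such as Epha5 and Epha7 lie above 1, and Sema4f, Plxnd1 and Sema6b below 1.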

How the data were processed

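For each experiment the authors deposited whole-number counts per Ensembl gene, and per library counts per exon bin, none of them normalized. The build is mm10 and the tools named are HTSeq and STAR 2.5.3a, per the submitters' processing notes; no source states the strand setting or annotation release. Members, lists and naming rule (the 8 smallest p per comparison, 4 members by exon bin and 4 other pathway genes by p in each experiment, the 12 highest and 4 lowest levels, 3 on each side of the level threshold) were chosen with earlier results of these data known. Gene tests used edgeR 4.0.16 under R 4.3.3, separately by experiment (filterByExpr, TMM, quasi-likelihood F test with robust estimates, Benjamini-Hochberg over all genes at 0.05); exon bins used diffSpliceDGE, and 1 fit over 18 libraries tested the difference between responses. The scripts were tested on simulated data. DESeq2 1.42.0, limma 3.58.1, other scalings, filters and left-out libraries were alternatives. CPM uses TMM-adjusted library sizes. Each library is a separate mouse; labels give no litter or sequencing batch. Replicate numbers, given in accession order, pair no samples. Bin coordinates were rebuilt from GENCODE release M 21 for genes with equal bin numbers (89.8% of 34765), and the last 5 lines of each exon file, totals of reads in no single bin, stayed out. One of the other pathway genes that the naming rule takes in overexpression is not reported here.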

Additional observations from a re-analysis of the deposited data

Results flagged for a closer look

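The 8 members with the smallest p in each experiment, Ptbp1 and the members' sum gave 40 sets of values by group, and in 2 of them 1 library stood far from the rest; chance does this in about 1 of 20 sets. Scrambled shRNA library 4 held 3.09 CPM of Sema4b, while the next value of that group was 0.70 CPM and the lowest 0.03 CPM. Control-vector library 4 held 44.5 CPM of Epha7, while the other 3 lay between 33.7 and 35.1 CPM.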

How the results depend on the processing

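No paired analysis was possible because the replicate numbers only name libraries. In overexpression 0 members were called under all alternatives run, and of the exon bins none in either experiment under the alternatives run. In silencing, members called were 0 with edgeR and left-out libraries, but 3 with DESeq2, with or without independent filtering (Sema3a, Sema4f, Efnb2), 1 with limma-voom (Sema3a) and 6 with 1 spread over 18 libraries (these 3, Epha6, Efna3 and Efnb1), where 9.98% of all genes were called. Efnb1 was not tested in the main silencing fit and entered the fit over 18 libraries through its overexpression counts. For the difference between responses DESeq2 called 3 with either filtering, and leaving out libraries gave 0 to 2. Members lower in overexpression were 26 to 45 with 1 library left out and 14 without Ptbp1 libraries 1 and 3; the median turned to 0.01 without library 1 alone. Members at an unadjusted p under 0.05 in overexpression were 0 to 8 with 1 library left out, 8 without Ptbp1 library 5 and 6 without library 4. In silencing they were 3 to 7 with 1 library left out, and the median ran from -0.34 to -0.02. The share of all genes at an unadjusted p under 0.05 was not computed for these alternatives. The Ptbp1 difference in silencing ran from -0.93 to 0.57 with 1 library left out and was 0.0025 on the log2(CPM + 2) scale. For the 8 members with the smallest p per comparison the alternatives gave 448 values. Of these, 426 stayed on the same side of the threshold, 22 newly passed it and 0 changed sign. Those members were picked by their p, which favours a steady sign, so the signs of the other members are not covered. The cause of these moves was not tested. The uneven silencing libraries limit what can be seen there: the median SE of the members was 0.74 against 0.22 in overexpression.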
